A study of Rattus norvegicus with 62 samples.

Results

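The genes described here are 35 aminoacyl-tRNA synthetase genes, 19 for the enzymes of the cytosol and 16 for the enzymes of the mitochondrion, out of 40982 genes in the count tables. The rule takes the family by gene name and uses no measured value, though the family was picked with earlier results of these data known. All 35 passed the low-count filter in every fit. Of these, 30 were found in both tables under the listed symbol and 5 by gene identifier: Cars1, Eprs1, Gars1 and Kars1 stand there under their older symbols, and Mars2 under a provisional locus name. The samples were L4 dorsal root ganglia of rats, the clusters of sensory nerve cell bodies at the fourth lumbar level, taken after chronic constriction injury, a model of neuropathic pain in which the sciatic nerve is loosely tied. Poly-A RNA of each ganglion was sequenced on the injured (ipsilateral) side and on the opposite (contralateral) side. Males were sampled at 24 h (6 libraries a side), 1 week (7 a side) and 5 weeks (5 a side), and females at 1 week (7 a side) and 5 weeks (6 a side). All animals carried the injury, so the reference throughout is the uninjured side of injured rats, and the labels give no strain, age, genetic change or drug.

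Aminoacyl-tRNA synthetases join each amino acid to its transfer RNA, the step that lets the ribosome read the genetic code. The nucleus encodes one set for the cytosol and a largely separate set for the small ribosomes inside mitochondria. Several cytosolic enzymes sit together in a large complex held by scaffold proteins, and the genes of many are induced by ATF4, a transcription factor made when cells lack amino acids or fold proteins badly. Dominant mutations in several cytosolic synthetase genes cause inherited neuropathies of the Charcot-Marie-Tooth kind, in which long peripheral axons degenerate, so these enzymes are of interest in sensory ganglia.

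The ATF4-type element is shown first, for both compartments. Its part in the results below was not tested. RefSeq promoters (assembly GRCr8, 250 bases before to 50 after the start) were matched for 32 of the 35 genes, 17 cytosolic and 15 mitochondrial; Gars1, Rars1 and Mars2 had no entry. Searched on both strands, the 8 letters TGATGCAA stood in 7 of 17 cytosolic promoters (41.2%), in 0 of 15 mitochondrial ones, and in 266 of 33469 promoters of all genes (0.795%). With any base at the sixth place, TGATGNAA, which includes the first pattern, the counts were again 7 and 0, against 1332 of all promoters (3.98%). The 7 genes were Aars1, Cars1, Iars1, Mars1, Nars1, Tars1 and Yars1. A match of letters is a description and not a measured binding site. The windows of 5 of them follow, read 5′ to 3′ on the strand of the gene, with the element or its reverse complement in capitals.
Cars1: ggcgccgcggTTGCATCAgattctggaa
Iars1: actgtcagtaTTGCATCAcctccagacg
Mars1: cccgttccggTTGCATCAgcgtgggctc
Tars1: tggcgtcccgTTGCATCAgctggttagc
Yars1: cgagctcagcTGATGCAAcctg
They lie at chr1:208225335-208225362 (minus strand) for Cars1, chr17:15193659-15193686 (minus) for Iars1, chr7:65023753-65023780 (minus) for Mars1, chr2:62114812-62114839 (minus) for Tars1 and chr5:146820191-146820212 (plus) for Yars1. In 4 of the 5 the capitals read TTGCATCA, the reverse complement, and in Yars1 they read TGATGCAA. The 250 bases upstream of Tars1 and Iars1 are given in full, since these carry the same 8 letters close to the start and moved in opposite directions after injury.
Tars1: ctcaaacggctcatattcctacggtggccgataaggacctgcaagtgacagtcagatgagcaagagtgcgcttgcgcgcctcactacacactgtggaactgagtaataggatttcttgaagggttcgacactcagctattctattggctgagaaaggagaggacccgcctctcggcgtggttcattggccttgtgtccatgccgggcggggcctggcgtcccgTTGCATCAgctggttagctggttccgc
Iars1: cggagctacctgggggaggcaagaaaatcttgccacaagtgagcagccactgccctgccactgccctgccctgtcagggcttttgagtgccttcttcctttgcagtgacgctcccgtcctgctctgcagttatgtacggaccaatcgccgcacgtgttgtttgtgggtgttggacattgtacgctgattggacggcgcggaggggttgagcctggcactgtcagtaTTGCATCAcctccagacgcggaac
These stretches are chr2:62114803-62115052 for Tars1 and chr17:15193653-15193902 for Iars1, both on the minus strand.

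The libraries held 16.9 to 33.5 M assigned reads each. Males at 1 and 5 weeks (24 libraries) were deposited in one table, and females with the 24 h males (38 libraries) in another, so at 1 and 5 weeks sex and table cannot be told apart. The injury marker Atf3 was higher on the injured side in all 5 comparisons, by a log2 fold change of 4.46 to 5.27. Among markers of the ganglion's cells, 10 of 12 macrophage genes rose at 1 week in both sexes and at 5 weeks in females, 4 rose and 1 fell at 5 weeks in males, and 0 changed at 24 h. All 5 Schwann cell myelin genes fell at 1 week in both sexes. At 1 week in males all 6 erythrocyte genes, all 5 neutrophil genes and 4 of 6 tested T and B cell genes also rose, and 3 of 4 satellite glia genes fell. At 5 weeks in females 3 of 4 satellite glia genes and 3 of 5 fibroblast genes rose. The summed level of the 6 neuronal markers at 1 week in males was 12640 to 15750 CPM (counts scaled to library size) on the injured side against 16128 to 17386 on the other. In females it was 14665 to 16416 against 15779 to 17640 at 1 week and 15074 to 16517 against 17145 to 18502, without overlap, at 5 weeks. Single neuronal markers went both ways in each of these 3 comparisons, with 2, 3 and 2 higher and 3 lower. The part of these shifts in the results below was not tested, and in whole ganglia fewer cells of a type and less RNA per cell cannot be told apart. Replicates are separate labelled samples, and p-values measure the spread between them.

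On the uninjured side the cytosolic genes were the more abundant set per unit of exon length. Levels in RPKM, reads scaled to exon length and library size, as the mean of the 5 contralateral group means, ran from 10.5 for Cars1 to 121 for Nars1 among the cytosolic genes, with a median of 35.7. The mitochondrial genes ran from 0.987 for Rars2 to 22.2 for Iars2, with a median of 3.1. Nars1 (asparagine; 121 RPKM), Aars1 (alanine; 110 RPKM) and Sars1 (serine; 103 RPKM) led the order, with ranges of group means of 118 to 123, 104 to 114 and 100 to 107. The range of Nars1 lay above the other two, and those of Aars1 and Sars1 overlapped. Gars1 (glycine; 70.8 RPKM) and Hars1 (histidine; 68.6 RPKM) came next with overlapping ranges. Iars2 (isoleucine), Tars2 (threonine; 15.9 RPKM) and Hars2 (histidine; 10.9 RPKM) were the 3 mitochondrial genes that reached above the lowest cytosolic level.

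**Figure D1:**
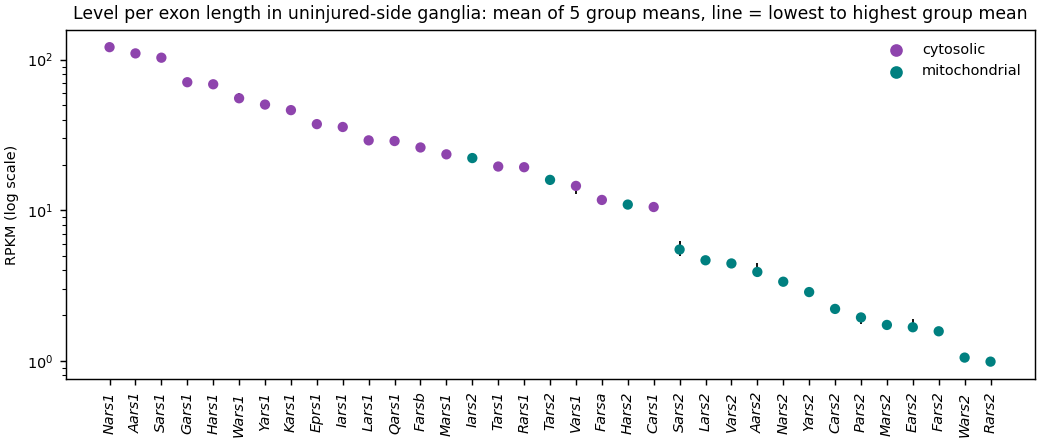
Level of each of the 35 genes per exon length (RPKM, log axis) on the uninjured side; points are the mean of 5 contralateral group means and lines run from the lowest to the highest group mean. Cytosolic genes fill the upper end, from Nars1 at 121 RPKM, and mitochondrial genes the lower end, down to Rars2 at 0.987 RPKM.

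The side differences were small and differed by compartment. No member changed by more than 0.44 on the log2 scale in either direction in any comparison, while between 754 and 2151 of all genes tested had a log2 fold change above 0.5. At 24 h in males 10 of 19 cytosolic genes rose and 0 fell (adjusted p under 0.05 in edgeR's quasi-likelihood test, Benjamini-Hochberg over all genes tested, as for every call below), against 8.23% of all genes higher and 5.90% lower. In males 6 rose and 5 fell at 1 week, against 23.6% and 23.4% of all genes. Their counts at 5 weeks were 2 higher and 7 lower, against 16.0% and 18.7%. In females 9 rose and 1 fell at 1 week, against 23.9% and 21.8%, and 2 rose and 9 fell at 5 weeks, against 22.9% and 19.1%. The median log2 fold change of the 19 genes was 0.11 at 24 h, 0.01 and -0.03 at 1 and 5 weeks in males, and 0.07 and -0.06 in females, beside medians of -0.01 to 0.01 over all genes. Of the 16 mitochondrial genes 0 rose in any comparison. They fell in 1 case at 24 h, 6 and 4 at 1 and 5 weeks in males, and 4 and 2 in females, with medians of -0.01, -0.09, -0.05, -0.09 and -0.08 in that order. Read against the background shares, the higher cytosolic genes at 24 h and at 1 week in females and the lower ones at 5 weeks in both sexes were the counts that stood furthest above. The shares cover all genes tested and were not matched to the members in level or precision. The mitochondrial counts of lower genes lay nearer to the background, with the widest gap at 1 week in males (6 of 16).

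Set beside each other within pairs of same-numbered libraries, the cytosolic median lay above the mitochondrial median in 7 of 7 pairs at 1 week in males and in 7 of 7 in females. The count was 5 of 6 at 24 h, 3 of 5 at 5 weeks in males and 4 of 6 at 5 weeks in females. Among the females at 1 week the cytosolic medians of the pairs were 0.02 to 0.11 and the mitochondrial ones -0.14 to -0.03, without overlap. Males at 1 week gave -0.04 to 0.06 and -0.20 to -0.08, also without overlap. Mitochondrial genes were measured less precisely: the median standard error of their log2 fold changes was 0.0641 to 0.0777 across the comparisons, against 0.0338 to 0.0407 for cytosolic genes, so a difference of a given size passed the test less readily among them.

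**Figure D2:**
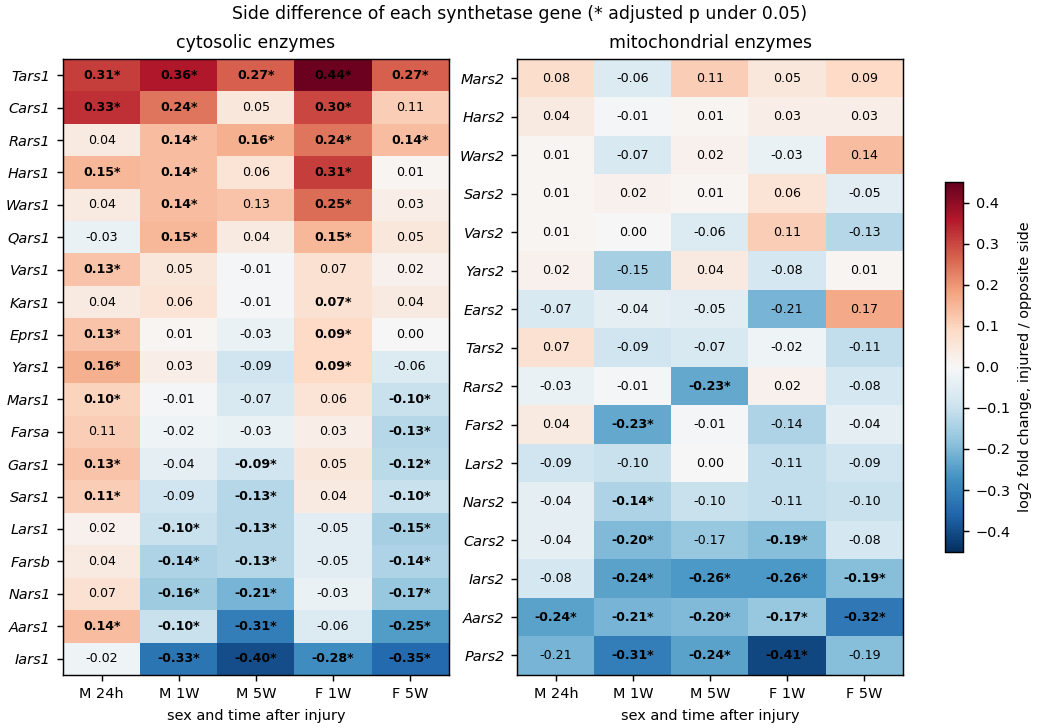
Log2 fold change, injured over opposite side, of each gene (rows, ordered by mean) in the 5 comparisons (columns); colour and number give the value and an asterisk an adjusted p under 0.05. Tars1 is positive with an asterisk in all 5 columns, Iars1 is negative with one at 1 and 5 weeks, and no mitochondrial gene has a positive value with an asterisk.

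**Figure D3:**
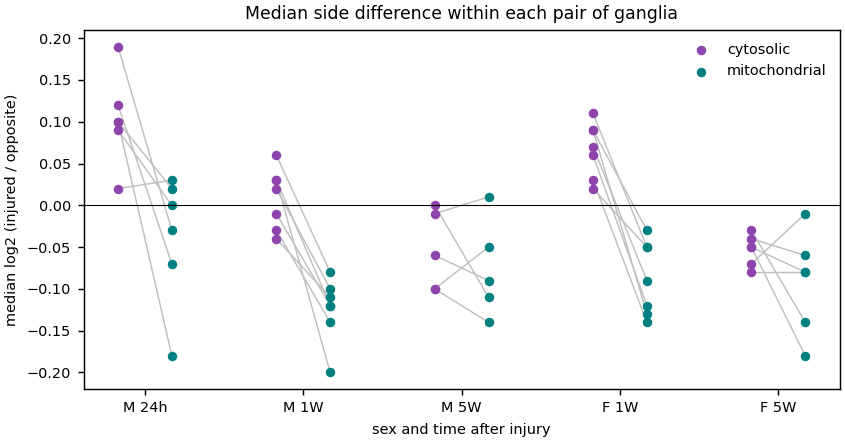
Median log2 ratio, injured over opposite ganglion, of the 19 cytosolic and 16 mitochondrial genes in each pair of same-numbered libraries (grey lines), by sex and time. The cytosolic point is the upper one in all 7 pairs of both 1 week comparisons and in 3 of 5 to 5 of 6 pairs of the others.

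Tars1, the threonyl-tRNA synthetase, was the one member higher on the injured side in every comparison. In males at 24 h its level was 53.9, 64.8 and 68.2 CPM (lowest, median and highest library, as in all groups of 6 or 7) on the opposite side and 60.1, 80.6 and 93 CPM on the injured side. The groups overlapped through the lowest injured library, and the injured ganglion was the higher one in 6 of 6 pairs (log2 fold change 0.31, SE 0.0695, adjusted p = 0.0013). In males at 1 week the 7 opposite libraries lay at 61.5, 62.1 and 65.1 CPM and the injured ones at 73.4, 79.8 and 87.4 CPM, with no overlap (0.36, SE 0.0416, adjusted p = 1.3e-07). In males at 5 weeks the opposite libraries read 67, 63.1, 66.1, 64 and 59 CPM and the injured ones 74, 80.5, 81.1, 80.9 and 67.6 CPM, again without overlap (0.27, SE 0.0498, adjusted p = 0.000148). The females gave the largest difference, at 1 week, with 60.8, 63.4 and 66.6 CPM against 72.4, 85.8 and 95.9 CPM (0.44, SE 0.0641, adjusted p = 4.49e-07). At 5 weeks the female values were 57, 63.5 and 67.2 CPM against 70.7, 77.4 and 80.2 CPM (0.27, SE 0.0696, adjusted p = 0.00163), and these groups did not overlap either. The calls for Tars1 held in every alternative fit and with each replicate left out.

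Iars1, the isoleucyl-tRNA synthetase and a member of the multi-synthetase complex, was the one cytosolic gene lower on the injured side in all 4 comparisons at 1 and 5 weeks. At 24 h the sides did not separate, at 157, 161 and 169 CPM on the opposite side and 153, 159 and 169 CPM on the injured side (log2 fold change -0.02). Male values at 1 week were 147, 157 and 169 CPM against 115, 124 and 131 CPM, with every injured library below every opposite one (-0.33, SE 0.0392, adjusted p = 2.12e-07). Male libraries at 5 weeks read 158, 157, 170, 173 and 165 CPM on the opposite side and 129, 121, 137, 124 and 115 CPM on the injured side (-0.40, SE 0.0466, adjusted p = 3.3e-07). The gap in females was of like size: 159, 165 and 187 CPM against 128, 137 and 147 CPM at 1 week (-0.28, SE 0.035, adjusted p = 2.18e-08), and 164, 171 and 186 CPM against 129, 136 and 146 CPM at 5 weeks (-0.35, SE 0.0379, adjusted p = 2.44e-09). None of the 4 comparisons showed overlap, and all 4 calls held in every alternative and with each replicate left out. On mRatBN7.2 the gene's span overlaps 2 predicted genes on the same strand, whose reads could be shared with it.

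Aars1, the alanyl-tRNA synthetase, changed direction with time. At 24 h it read 361, 390 and 399 CPM on the opposite side and 389, 430 and 455 CPM on the injured side, higher in 6 of 6 pairs with overlapping ranges (log2 fold change 0.14, SE 0.0318, adjusted p = 0.00216). By 1 week in males it stood at 406, 409 and 425 CPM against 373, 381 and 396 CPM, lower without overlap (-0.10, SE 0.0257, adjusted p = 0.00159). The opposite libraries of 5 week males read 399, 417, 436, 424 and 438 CPM and the injured ones 328, 336, 363, 337 and 344 CPM (-0.31, SE 0.0305, adjusted p = 2.69e-08). In females the difference at 1 week, 375, 390 and 414 CPM against 369, 380 and 384 CPM, did not pass (-0.06, adjusted p = 0.0703). At 5 weeks it did, at 411, 421 and 436 CPM against 336, 355 and 371 CPM without overlap (-0.25, SE 0.0318, adjusted p = 4.6e-08).

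**Figure D4:**
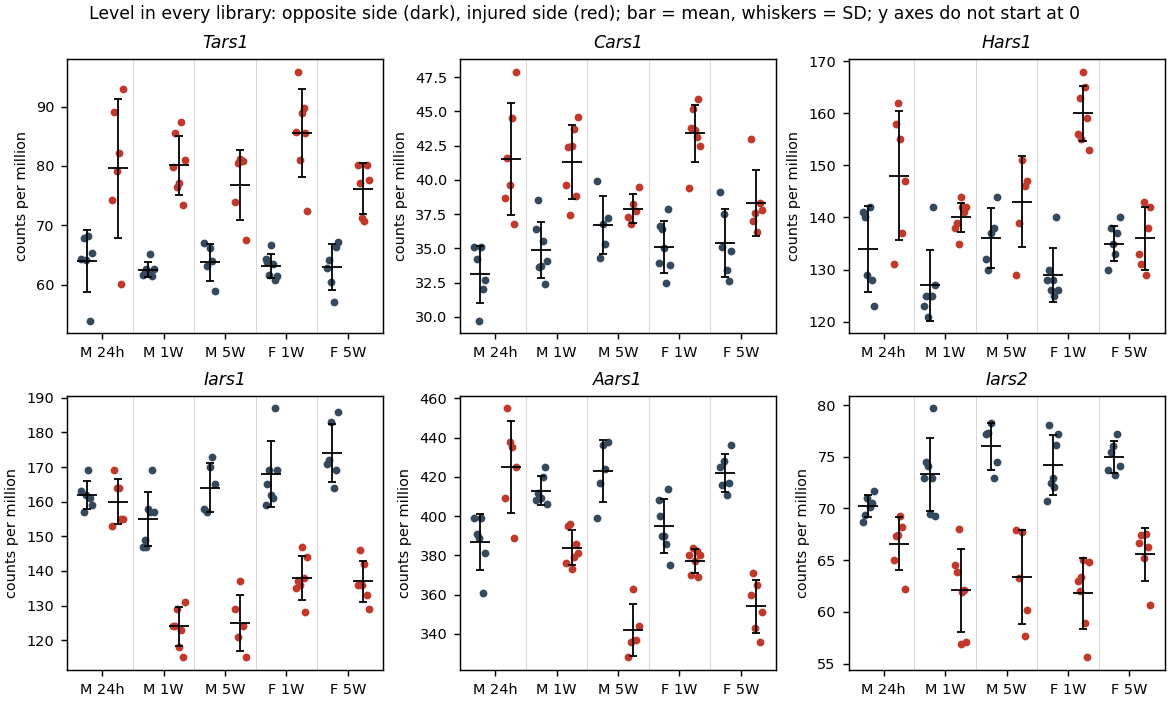
Level in every library (CPM) of 5 cytosolic genes and Iars2, with the mean and SD of each group; dark points are the opposite side, red points the injured side, and the axes do not start at 0. For Iars1 the red points at 1 and 5 weeks (115 to 147 CPM) lie below all dark points (147 to 187 CPM) of the same comparison, and for Aars1 the red points move from above at 24 h to below at 5 weeks.

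Hars1, Wars1 and Qars1 were called higher on the injured side at 1 week in both sexes. In males the change from 1 to 5 weeks was not called for any of them (-0.08, -0.01 and -0.10). Hars1, the histidyl-tRNA synthetase, read 125, 128 and 140 CPM on the opposite side and 153, 159 and 168 CPM on the injured side in females at 1 week, without overlap (log2 fold change 0.31, SE 0.0394, adjusted p = 2.54e-08). In males at 1 week it read 121, 125 and 142 CPM against 135, 141 and 144 CPM, overlapping through one opposite library (0.14, adjusted p = 0.00177). It also rose at 24 h, from 123, 134 and 142 CPM to 131, 151 and 162 CPM (0.15, adjusted p = 0.0139), a call lost without pair 3 or 6. At 5 weeks it did not pass in either sex. In males the values then were 132, 130, 137, 138 and 144 CPM against 129, 139, 151, 146 and 147 CPM (0.06), and in females 130, 136 and 140 CPM against 129, 135 and 143 CPM (0.01). Hars1 starts 90 bases from Hars2 in the opposite direction (mRatBN7.2), and Hars2, the mitochondrial histidine enzyme, was between -0.01 and 0.04 in all 5 comparisons. The span of Hars1 also overlaps 1 predicted gene on the same strand, whose reads could be shared with it.

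Wars1, the tryptophanyl-tRNA synthetase, is known as a target of interferon gamma. In females at 1 week it read 169, 179 and 202 CPM on the opposite side and 206, 214 and 233 CPM on the injured side, without overlap (log2 fold change 0.25, SE 0.0415, adjusted p = 3.46e-06). In males at 1 week it stood at 161, 165 and 171 CPM against 176, 182 and 186 CPM, also without overlap (0.14, SE 0.0436, adjusted p = 0.0125). For 5 week males the opposite libraries read 163, 177, 193, 191 and 187 CPM and the injured ones 165, 201, 211, 216 and 201 CPM, which overlapped and did not pass (0.13, adjusted p = 0.0589). With the pair number as a block the adjusted p there was 0.00312. Wars1 did not pass at 24 h (150, 171 and 190 CPM against 163, 175 and 186 CPM) or in females at 5 weeks (184, 192 and 198 CPM against 183, 196 and 212 CPM). Of 14 interferon gamma targets, 8 of 12 tested rose and 0 fell at 1 week in males (Irf1 by 0.74), against 23.6% of all genes higher. At 5 weeks in males 1 rose (Gbp2, 0.93), against 16.0%. In females 0 of 11 tested were called at 1 week, against 23.9%, though 10 lay above 0, with a median of 0.43. At 5 weeks in females 6 rose (Psmb9 by 0.95), against 22.9%, and at 24 h 0 were called, against 8.23%.

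Qars1, the glutaminyl-tRNA synthetase of the complex, had narrow groups. In males at 1 week it read 74.8, 76.5 and 78.8 CPM against 80.6, 84.3 and 88.3 CPM (log2 fold change 0.15, SE 0.0287, adjusted p = 0.000139). At the same time in females it read 75.9, 80.1 and 81.2 CPM against 85.9, 89 and 91.6 CPM (0.15, SE 0.0238, adjusted p = 2.52e-06). In both sexes every injured library lay above every opposite one. The male call was lost when the 5 week opposite-side libraries served as reference (0.02), as were those for Hars1 (0.04) and Wars1 (-0.01). At 24 h the values were 78, 79.9 and 85.1 CPM against 76.1, 78.5 and 82.7 CPM (-0.03). At 5 weeks they were 87.7, 82.2, 83.4, 83.8 and 82.1 CPM against 79.6, 85.8, 87.3, 92.8 and 86.5 CPM in males (0.04) and 77.3, 78.3 and 79.9 CPM against 78.8, 80.7 and 84.2 CPM in females (0.05); neither passed.

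The other cytosolic genes differed in timing and direction. Cars1, the cysteinyl-tRNA synthetase, rose at 24 h (log2 fold change 0.33, adjusted p = 3.71e-05, without overlap) and at 1 week (0.24 in males, 0.30 in females), with 0.05 and 0.11 at 5 weeks, which did not pass. Rars1, the arginyl-tRNA synthetase, did not pass at 24 h (0.04) and rose in the 4 later comparisons by 0.14 to 0.24. Nars1 was lower at 1 week in males (-0.16) and at 5 weeks in both sexes (-0.21 and -0.17), each time without overlap, but not at 1 week in females (-0.03). Lars1 (leucine) and Farsb, a subunit of the phenylalanyl-tRNA synthetase, fell in the same 3 comparisons, by 0.10 to 0.15. Farsa, the partner subunit of Farsb, passed only at 5 weeks in females (-0.13). Sars1 rose at 24 h (0.11) and fell at 5 weeks in both sexes (-0.13 and -0.10). Eprs1, which joins the glutamate and proline enzymes in one protein, rose at 24 h (0.13) and at 1 week in females (0.09). Vars1 (valine) passed only at 24 h (0.13). That call, like the 24 h calls for Sars1 and Mars1, was kept in 6 of 8 alternatives. Each was kept in only 2 of the 6 fits that left out 1 pair. The Sars1 call at 5 weeks in males was kept in 5 of 9 alternatives and 7 of 15 fits with replicates left out.

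The 7 genes linked to inherited neuropathy (Aars1, Gars1, Hars1, Kars1, Mars1, Wars1 and Yars1) counted 5 higher and 0 lower at 24 h. They counted 2 higher and 1 lower at 1 week and 0 higher and 2 lower at 5 weeks in males, then 4 and 0 at 1 week and 0 and 3 at 5 weeks in females. In that order 8.23, 23.6, 16.0, 23.9 and 22.9% of all genes were higher and 5.90, 23.4, 18.7, 21.8 and 19.1% lower, so the counts in males at 1 and 5 weeks stood near the background. Gars1 (glycine) was 0.13, -0.04 and -0.09 in males at the 3 times and 0.05 and -0.12 in females, with calls at 24 h and at both 5 week comparisons. The call for Gars1 at 5 weeks in males (adjusted p = 0.0281) was kept in 4 of 9 alternatives and 4 of 15 fits with replicates left out. Mars1 (methionine) was 0.10, -0.01 and -0.07 in males and 0.06 and -0.10 in females, called at 24 h and at 5 weeks in females; its gene overlaps Ddit3 on the opposite strand. Yars1 (tyrosine) was 0.16, 0.03 and -0.09 in males and 0.09 and -0.06 in females, called at 24 h and at 1 week in females. The blocked fit called it lower at 5 weeks in males as well (adjusted p = 0.0374). Kars1 (lysine), one gene for both compartments as Gars1 is, passed only at 1 week in females (0.07, adjusted p = 0.0344). That call was kept in 2 of 9 alternatives and in only 2 of the 7 fits that left out 1 pair. With the pair block the adjusted p was 0.0576.

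Among the cytosolic genes in the multi-synthetase complex (Eprs1, Iars1, Kars1, Lars1, Mars1, Qars1 and Rars1) 2 of 7 rose at 24 h, and 8 of the other 12 did. At 1 week in males 2 of the 7 rose and 2 fell, with 4 and 3 among the other 12, and at 5 weeks 1 rose and 2 fell, with 1 and 5. At 1 week in females 4 of the 7 rose and 1 fell, with 5 and 0 among the other 12, and at 5 weeks 1 rose and 3 fell, with 1 and 6. The difference between the 2 sets was not tested. Of all genes 8.23, 23.6, 16.0, 23.9 and 22.9% were higher and 5.90, 23.4, 18.7, 21.8 and 19.1% lower, in the order of these comparisons. The scaffold gene Aimp2 rose in all 5 comparisons, by 0.35 at 24 h, 0.42 and 0.28 at 1 and 5 weeks in males, and 0.58 and 0.18 in females. Aimp1, another scaffold, was 0.05 at 24 h, 0.03 at 1 week in males and 0.01 at 5 weeks in males, and none of these male values passed. Eef1e1, the third scaffold, rose at 24 h (0.17) and at 1 week in females (0.34). Of the list of 4 genes that holds these scaffolds and the remaining cytosolic synthetase, 2, 1, 1, 3 and 2 rose. In each comparison 0 fell. The order is that of the shares above. At 1 week in females all 4, Aimp1 among them, lay above 0, at 0.10 to 0.58.

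Iars2, Aars2 and Pars2 carried most of the mitochondrial calls. Iars2, the isoleucine enzyme, read 68.7, 70.3 and 71.7 CPM on the opposite side and 62.2, 67.4 and 69.3 CPM on the injured side at 24 h, which did not pass (log2 fold change -0.08). It fell in males at 1 week, from 69.3, 72.9 and 79.7 CPM to 56.9, 62.1 and 68 CPM without overlap (-0.24, SE 0.0422, adjusted p = 4.56e-05). Males at 5 weeks had opposite libraries of 77.2, 77.3, 78.3, 72.9 and 74.5 CPM and injured ones of 67.9, 63.3, 67.7, 57.7 and 60.2 CPM (-0.26, SE 0.0504, adjusted p = 0.000196). In females it fell from 70.7, 72.9 and 78.1 CPM to 55.6, 63 and 65 CPM at 1 week (-0.26, SE 0.0314, adjusted p = 6.52e-09). At 5 weeks it fell from 73.2, 74.8 and 77.2 CPM to 60.7, 66.5 and 67.5 CPM (-0.19, SE 0.034, adjusted p = 1.89e-05). No comparison at 1 or 5 weeks showed overlap for Iars2, and each of these 4 calls held in every alternative and with each replicate left out.

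Aars2, the mitochondrial alanine enzyme, was the only mitochondrial gene lower in all 5 comparisons. Its opposite and injured libraries read 14.1, 15.3 and 17.1 CPM against 10.7, 13.3 and 14.4 CPM at 24 h (log2 fold change -0.24, adjusted p = 0.0238). At 1 week they read 13.9, 14.9 and 16.1 CPM against 11.2, 13 and 14.2 CPM in males (-0.21, adjusted p = 0.00341) and 13.3, 16.6 and 17 CPM against 11.3, 14.5 and 16 CPM in females (-0.17, adjusted p = 0.0381). The 5 week male libraries read 16.7, 15.6, 15.3, 14.4 and 15.7 CPM against 14, 12.9, 12.4, 13.1 and 15.4 CPM (-0.20, adjusted p = 0.0237). In females at 5 weeks, the one comparison without overlap, they read 17.1, 18.1 and 21.2 CPM against 13.1, 15 and 16.9 CPM (-0.32, adjusted p = 0.0007). The calls at 24 h, at 5 weeks in males and at 1 week in females were each lost on leaving out one of several pairs. The call at 5 weeks in females was lost when the 1 week opposite-side libraries served as reference (-0.10).

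Pars2, the proline enzyme, sat near the lower end of the level range. At 1 week it read 6.09, 6.81 and 7.29 CPM against 4.69, 5.6 and 5.98 CPM in males (log2 fold change -0.31, SE 0.0703, adjusted p = 0.000772) and 6.28, 6.76 and 8.17 CPM against 4.5, 5.25 and 6.13 CPM in females (-0.41, SE 0.0973, adjusted p = 0.000633), without overlap in either sex. Its 5 week male values were 6.93, 7.1, 6.03, 6.4 and 7.45 CPM against 4.89, 6.63, 5.52, 5.53 and 6.1 CPM (-0.24, adjusted p = 0.0305), a call kept in 6 of 9 alternatives and 4 of 15 fits with replicates left out. It did not pass at 24 h (4.92, 6.01 and 7.52 CPM against 4.53, 5 and 6.23 CPM) or in females at 5 weeks (5.97, 7.2 and 8.12 CPM against 5.31, 6.36 and 7.32 CPM). Cars2 fell at 1 week in males (-0.20) and females (-0.19), Fars2 and Nars2 fell at 1 week in males (-0.23 and -0.14), and Rars2 fell at 5 weeks in males (-0.23). The Nars2 call (adjusted p = 0.0464) was lost in several alternatives. The remaining 9 mitochondrial genes, Ears2, Hars2, Lars2, Mars2, Sars2, Tars2, Vars2, Wars2 and Yars2, passed in no comparison, at values between -0.21 and 0.17. With the pair block Lars2 passed at 1 week in males (-0.10, adjusted p = 0.041) and Ears2 at 1 week in females (-0.21, adjusted p = 0.0457). Aars2, Cars2, Iars2, Nars2, Rars2, Sars2 and Yars2 overlap other genes on the opposite strand, as do the cytosolic Aars1, Mars1 and Sars1. Whether counting used strand is not given in the sources used here.

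Tests of the change itself, in one model over both times, bore on the shift with time. Between 24 h and 1 week in males the side difference changed in 11 of 35 members, against 23.0% of all genes, and 10 of the 11 moved downward or, for Iars2, further down. The estimates with the smallest p were -0.24 for Aars1 (SE 0.0407), -0.31 for Iars1 (SE 0.0553), 0.18 for Qars1 (SE 0.0375), -0.22 for Nars1 (SE 0.0498) and -0.17 for Gars1 (SE 0.043). Qars1 was the only one to move upward, and Sars1, Farsb, Yars1, Eprs1 and Lars1 moved by -0.19 to -0.12. The 24 h and 1 week males stand in different tables, so time and table cannot be told apart in this test beyond what cancels between the sides. Leaving out pair 6 of the 1 week males gave 7 calls in place of 11. Between 1 and 5 weeks in males 1 member changed, Aars1 (-0.20, SE 0.0399, adjusted p = 0.0233), where 0.211% of all genes did. That call was lost without pair 2, 4 or 5 of the 5 week males, when 0 members passed.

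In females the side difference fell between 1 and 5 weeks in 7 of 35 members, all cytosolic, and rose in 0. Of all 18125 genes tested it fell in 1066 and rose in 1388, 13.5% in either direction. Hars1 moved most (-0.30, SE 0.0581, adjusted p = 0.000271), followed by Wars1 (-0.22, SE 0.0611), Aars1 (-0.19, SE 0.0433), Gars1 (-0.17, SE 0.0455), Mars1 (-0.15), Yars1 (-0.15) and Nars1 (-0.14). Of these 7, 6 are on the neuropathy list. The share of ribosomal RNA reads in the 1 week females was 0.692 to 1.42% on the injured side and 1.69 to 2.76% on the other, without overlap. With that share as a covariate 2 members passed here in place of 7, and 8 in place of 14 in the comparison of sides at 1 week; Hars1, Wars1, Qars1, Cars1, Tars1, Iars1, Iars2 and Pars2 were the 8. With the pair block 11 members passed in place of 7; the 4 gained were Cars1 (-0.19), Sars1 (-0.14) and the mitochondrial Vars2 (-0.24) and Ears2, which moved upward (0.38). The contralateral side itself moved somewhat between the weeks: Qars1 (0.13), Wars1 (0.15) and Sars2 (0.27) were higher at 5 weeks in males (13.5% of all genes changed), and Aars1 (0.10), Mars1 (0.11) and Aars2 (0.22) in females (10.7%).

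**Figure D5:**
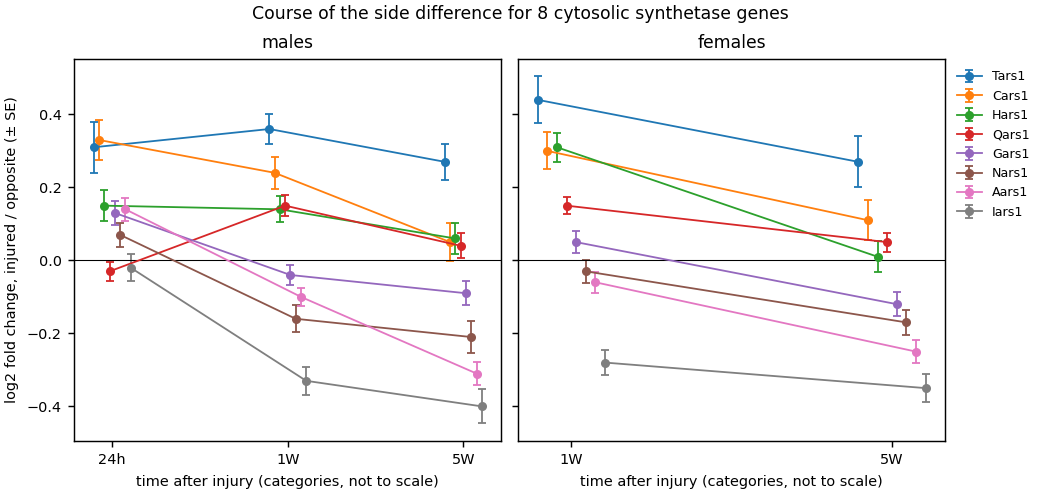
Log2 fold change with standard error of 8 cytosolic genes, injured over opposite side, at each sampled time in males (left) and females (right). Aars1 goes from 0.14 at 24 h to -0.31 at 5 weeks in males, Hars1 from 0.31 to 0.01 in females, while Tars1 stays between 0.27 and 0.44 and Qars1 is highest at 1 week in males.

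No member's side difference was called different between females and males. The test in edgeR gave 0 of 35 at 1 week, where 1.11% of all genes were called, and 0 of 35 at 5 weeks, where 2.11% were; limma-voom and DESeq2 also gave 0 at both times. At an unadjusted p under 0.05 the counts were 4 and 1. The smallest p at 1 week was that of Hars1, 0.16 higher in females with a 95% interval of 0.05 to 0.26 (adjusted p = 0.181). At 5 weeks it was that of Farsa, at -0.14 with an interval of -0.28 to 0.00 (adjusted p = 0.398). The less precisely measured Ears2 differed by more, at -0.19 at 1 week (adjusted p = 0.67) and 0.18 at 5 weeks (adjusted p = 0.727). Differences of this size between the sexes therefore remain within the intervals, and sex is tied to the table.

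The libraries that set the counts differed. At 24 h 11 members were called in all, and leaving out pair 2, 3 or 6 gave 7, 6 and 6; Cars1, Tars1, Yars1, Eprs1 and Aars1 were kept in every alternative and with each pair left out. The 5 week males gave 13 calls, and leaving out pair 2, 4 or 5, or the injured library 4 or 5 alone, gave 8, 6, 8, 6 and 8; Tars1, Iars2, Iars1, Nars1 and Aars1 were kept throughout. Over the 5 comparisons of sides 36 of 68 member calls were kept in every alternative and every leave-out.

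The 7 promoters with TGATGCAA did not share a direction. Of their genes 5 rose and 0 fell at 24 h, with 4 and 0 among the 10 cytosolic genes without it. The holders gave 2 higher and 3 lower at 1 week in males and 1 and 3 at 5 weeks. In females they gave 3 and 1 at 1 week and 1 and 4 at 5 weeks. In the same order the 10 without it gave 3 and 2, 0 and 3, 5 and 0, and 0 and 4. With 24 h first, 8.23, 23.6, 16.0, 23.9 and 22.9% of all genes were higher and 5.90, 23.4, 18.7, 21.8 and 19.1% lower. The holders' counts of higher genes at 1 and 5 weeks in males stood near these shares. Tars1 and Iars1, whose upstream sequences are printed above, were the highest and the lowest of the 19 cytosolic genes at 1 and 5 weeks in both sexes. Of 34 other ATF4 and stress-response genes 11 rose and 0 fell at 24 h. Among them were Gdf15, a stress hormone (log2 fold change 2.80), Ppp1r15a, which reverses the block on translation (0.43), and Slc3a2, an amino acid transporter subunit (0.39). Those 34 gave 13 higher and 8 lower at 1 week in males and 11 and 7 in females. At 5 weeks 6 rose and 9 fell in males and 9 and 7 in females. Against the shares of all genes given above, the count at 24 h stood furthest above the background, and the counts of lower genes at 1 week were near it. Atf4 itself passed only at 24 h (0.33), and the stress pseudokinase gene Trib3 and the folate enzyme gene Mthfd2 rose in all 5 comparisons. Pycr1, a proline synthesis gene, fell at 5 weeks in males (-0.80) and females (-0.63), as did Chac1, which degrades glutathione (-0.53 and -0.60). Vldlr, a lipoprotein receptor gene, rose at both weeks in both sexes (0.35 to 0.56). Eif2ak3, the stress kinase that halts translation, rose in all 5 comparisons, by 0.68 at 24 h and 0.40 to 0.45 later. Of the 11 genes of its list 2, 1, 1, 5 and 2 rose and 0, 1, 3, 2 and 1 fell. The order is 24 h, 1 and 5 weeks in males, 1 and 5 weeks in females, as for the shares of all genes above. At 1 week in males both counts lay below those shares.

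Genes that act on charged transfer RNA at the ribosome were counted for both compartments. Of 21 cytosolic initiation and elongation genes 7, 11, 8, 14 and 11 rose and 1, 1, 1, 0 and 1 fell, in the same order, beside 8.23, 23.6, 16.0, 23.9 and 22.9% of all genes higher and 5.90, 23.4, 18.7, 21.8 and 19.1% lower. Eef1a1, which brings charged transfer RNA to the ribosome, rose by 0.49 and 0.44 in males at 1 and 5 weeks and by 0.43 and 0.55 in females; at 24 h the smallest p belonged to Gspt1, a release factor (0.19). Of 31 matched mitochondrial ribosome genes 1, 0, 0, 1 and 0 rose and 1, 20, 8, 9 and 15 fell, with Mrps15 at -0.25 and -0.15 in males and -0.16 and -0.23 in females at 1 and 5 weeks. Of 11 mitochondrial translation factors 0, 0, 0, 1 and 0 rose and 1, 7, 4, 3 and 6 fell. Gfm1, the mitochondrial elongation factor G, fell by 0.40 in males at both weeks and by 0.39 and 0.28 in females. The other 5 mitochondrial charging genes gave 1 lower at 1 week in males, 1 higher at 1 week and 1 lower at 5 weeks in females, and 0 elsewhere. Of 21 tRNA editing, modification and transport genes 1, 4, 3, 7 and 1 rose and 0, 2, 4, 3 and 3 fell.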

How the data were processed

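RNA was measured in 62 libraries. The tools named in the submitters' processing notes are STAR (2.7.2b), featureCounts (1.6.4), cutadapt (2.5) and bcl2fastq (2.20.0.422); the build is mRatBN7.2. The authors deposited estimated counts per gene in 2 tables; not all values were whole, and all were rounded here.

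The members and related lists were chosen with earlier results of these data known. Each table was fitted with all its groups in edgeR 4.0.16 (R 4.3.3; TMM, filterByExpr with minimum count 10, quasi-likelihood test), with Benjamini-Hochberg adjustment over 18980 and 18125 genes tested, and both together over 19209 for tests across tables. A call is an adjusted p under 0.05. CPM were computed with TMM library sizes, log2 CPM for the pair medians with a prior count of 2, and RPKM with the deposited exon length. Intervals are 1.96 standard errors. limma 3.58.1, DESeq2 1.42.0 and other settings were alternatives. The script was tested on simulated data. Values by library were given for the 6 cytosolic and 3 mitochondrial genes with the smallest p in a comparison of sides. The 7 neuropathy-linked genes were named in every comparison, other members where called, and of each related list the genes with the smallest p; a few items are not reported here.

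Same-numbered libraries were treated as pairs in an alternative fit: in the table with females the labels give both sides one shared code, and the correlation of their deviations from the group means was 0.01 to 0.418 there and 0.197 to 0.47 in the males at 1 and 5 weeks. Figures were drawn with matplotlib 3.10.9.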

Additional observations from a re-analysis of the deposited data

Results flagged for a closer look

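Single libraries of the 9 members given by library were screened in each of the 10 groups (90 sets of values), and 8 stood apart from the rest of their group by a gap large for the group's range; chance alone gives this in about 1 in 20 groups. In males at 1 week, opposite-side library 6 held 142 CPM of Hars1 where the next read 127, and library 5 held 65.1 CPM of Tars1 where the next read 62.7. In females at 1 week, opposite-side library 6 was high for both Hars1 (140 CPM, next 130) and Iars1 (187 CPM, next 169), library 3 was low for Qars1 (75.9 CPM, next 80), and library 7 was low for Aars2 (13.3 CPM, next 15.6). At 24 h opposite-side library 5 was low for Tars1 (53.9 CPM, next 64.2). At 5 weeks in females injured-side library 6 was low for Iars2 (60.7 CPM, next 65.2). Of these 8 values 7 lie on the opposite side.

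The side difference changed between times in 19 tests of single members. From 24 h to 1 week in males the changes were -0.24 for Aars1, -0.12 for Eprs1, -0.18 for Farsb, -0.17 for Gars1, -0.31 for Iars1, -0.12 for Lars1, -0.22 for Nars1, 0.18 for Qars1, -0.19 for Sars1, -0.13 for Yars1 and -0.16 for Iars2, on the log2 scale. From 1 to 5 weeks in males it was -0.20 for Aars1. From 1 to 5 weeks in females the changes were -0.19 for Aars1, -0.17 for Gars1, -0.30 for Hars1, -0.15 for Mars1, -0.14 for Nars1, -0.22 for Wars1 and -0.15 for Yars1. Aars1 is the member that passed in all 3 tests of time.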

How the results depend on the processing

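Calls lost in some alternative included larger differences, such as Aars2 at 24 h (-0.24) and Pars2 and Rars2 at 5 weeks in males (-0.24 and -0.23); the cause of each change was not tested unless fewer samples or another set of tested genes made it. At 24 h 11 members were called, 6 with the 2 groups fitted alone, and 6 to 12 with each pair left out. In males at 5 weeks 13 were called, 8 without a filter on low counts, 6 with the 2 groups alone, and 6 to 12 with replicates left out. In females at 1 week 14 were called and 8 with the ribosomal RNA share as a covariate; the range with replicates left out was 10 to 15. It was 15 to 17 at 1 week in males and 10 to 12 at 5 weeks in females. The change from 24 h to 1 week in males fell from 11 to 7 without the filter and ran from 7 to 12 with each 1 week pair left out. The change from 1 to 5 weeks in males fell from 1 to 0 without the filter (0 to 1 with each 5 week pair left out). In females it went from 7 to 4 without the filter, 2 with the ribosomal RNA share and 11 with the replicate block, and to 5 to 6 with each 5 week pair left out. The contralateral comparison in males ran from 1 to 3 with replicates left out, and in females it gave 0 without the filter, 5 in DESeq2 and 1 to 2 with replicates left out (main counts 3 and 3); the count of 1 came without pair 2, 3 or 5 of the 5 week males and without pair 1 or 3 of the 5 week females.

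When opposite-side libraries from the other week served as reference, 4 calls changed sign: Nars2 (0.01) and Wars1 (-0.01) at 1 week in males, and Mars1 (0.02) and Farsa (0.01) at 5 weeks in females. The split of higher and lower calls then was 3 and 14 in place of 6 and 11 at 1 week in males, 8 and 10 in place of 2 and 11 at 5 weeks in males, 7 and 9 in place of 9 and 5 at 1 week in females, and 4 and 6 in place of 2 and 11 at 5 weeks in females. The replicate block lost 1 member call between sides (Kars1). In males it gained Sars1 and Lars2 at 1 week and Wars1, Yars1 and Cars2 at 5 weeks. In females it gained Ears2 at 1 week and Cars1 at 5 weeks. Counted over all member calls, with those between times and between opposite sides, the limma-voom, DESeq2 and other-scaling fits lost 1, 3 and 4.

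Over all genes, calls at 24 h went from 2560 to 1604 with the 2 groups alone, at 1 week in females from 8276 to 4060 with the ribosomal RNA share, and for the female change with time from 2454 to 716. The male change from 1 to 5 weeks gave 40, against 497 with the block, 140 in DESeq2 and 18, 22 and 25 without pair 2, 4 or 5 of the 5 week males. Tests between the sexes gave 214 and 405, and 517 and 697 with the block.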
